A study of Drosophila melanogaster with 3 samples.

Results

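The genes described here encode the cytoplasmic translation initiation factors (eIF) and elongation factors (eEF) of Drosophila melanogaster. They were chosen by symbol alone, as every protein-coding gene whose name begins with eIF or eEF, which gave 52 of 13986 protein-coding genes. Binding was read from anti-GFP ChIP-seq of whole prepupae, males and females together, of a stable transgenic line in which Blimp-1 carries GFP at its C terminus. There were 3 biological replicates of this 1 group, all from the same fly line, the age is given as unknown, and the labels do not say which promoter drives the transgene. The label for the antibody names Blimp-1 and the description names GFP. Control libraries were not analysed here. With no second group, no test between conditions was possible, and no enrichment test was made.

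Blimp-1 is a zinc finger repressor induced by ecdysone, the steroid that triggers metamorphosis. Translation starts when eIF2 brings the initiator tRNA to the small ribosomal subunit, eIF3 and the eIF4 group recruit the mRNA by its cap, and eIF1, eIF1A and eIF5 select the start codon. Elongation factors then deliver aminoacyl-tRNAs and move the ribosome along the message.

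A gene was called bound if any annotated transcription start site (TSS) of it had the summit of a reproducible site at most 1000 bp away. Reproducible sites are the peaks that passed the authors' threshold of irreproducible discovery rate (IDR), a measure of how well peak ranks repeat between replicates, with overlapping peaks merged. Of 5573 such peaks 4990 sites were made. The strength of a site in a replicate is given as relative signal, the deposited signal of the strongest overlapping peak divided by that replicate's median site, so that 1 is a median site. Read depth is unknown, since the lists hold no read counts. In whole animals, strong binding in few cells and weak binding in many cannot be told apart.

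Translation factor genes were bound about as often as genes in general. Of the 52 genes, 11 had a promoter site (21.2%), against 18.6% of all protein-coding genes. They were eIF1, eIF2Bbeta, eIF3h, eIF3j, eIF4A, eIF4EHP, eIF6, eEF1alpha1, eEF1gamma, eEF2 and eEF5, each with 1 promoter site. Replicates were then taken alone, each cut to its strongest 4990 peaks, and 14 members were bound in replicate 1 against 18.7% of all genes, 11 in replicate 2 against 16.8%, and 7 in replicate 3 against 13.7%. The member share was 20.5% ± 6.75 over the replicates (SD, n = 3), and that of all genes 16.4% ± 2.52 (SD, n = 3). The share of members lay above that of all genes in replicates 1 and 2 and slightly below it, at 13.5%, in replicate 3, and the 2 means differed by less than the SD of the members over replicates.

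The bound members ranged from some of the strongest sites to sites near the median. The mean relative signal ran from 0.72 to 11.5, with a median of 2.26 over the 11 member sites and 1.04 over all 2303 promoter sites. The member median was 1.48 when values were taken relative to the mean site and 1.09 when a peak had to overlap at least 50% of the site. Division by the mean site rescales every site of a replicate alike. The median of all promoter sites is not given for these settings, so neither value can be set against 1.04. In 6 of the 11, at eIF2Bbeta, eIF4EHP, eIF6, eEF1gamma, eIF1 and eIF3j, the signal was above the median site in all 3 replicates, as it was at 33.6% of all promoter sites. The remaining 5, at eIF3h, eEF2, eEF5, eIF4A and eEF1alpha1, had means between 0.72 and 1.03. For eIF3h, eEF2 and eIF4A the mean leaves out replicate 3, which had no peak there, so the 5 means are not fully comparable. No value of these 5 in any replicate reached the lowest value of the first 6, which was 1.47. With the overlap of 50% eIF1 had 1.09, 0.755 and 1.15 in replicates 1, 2 and 3, so there it was not above the median site in every replicate and did not stand apart from the weaker 5.

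**Figure D1:**
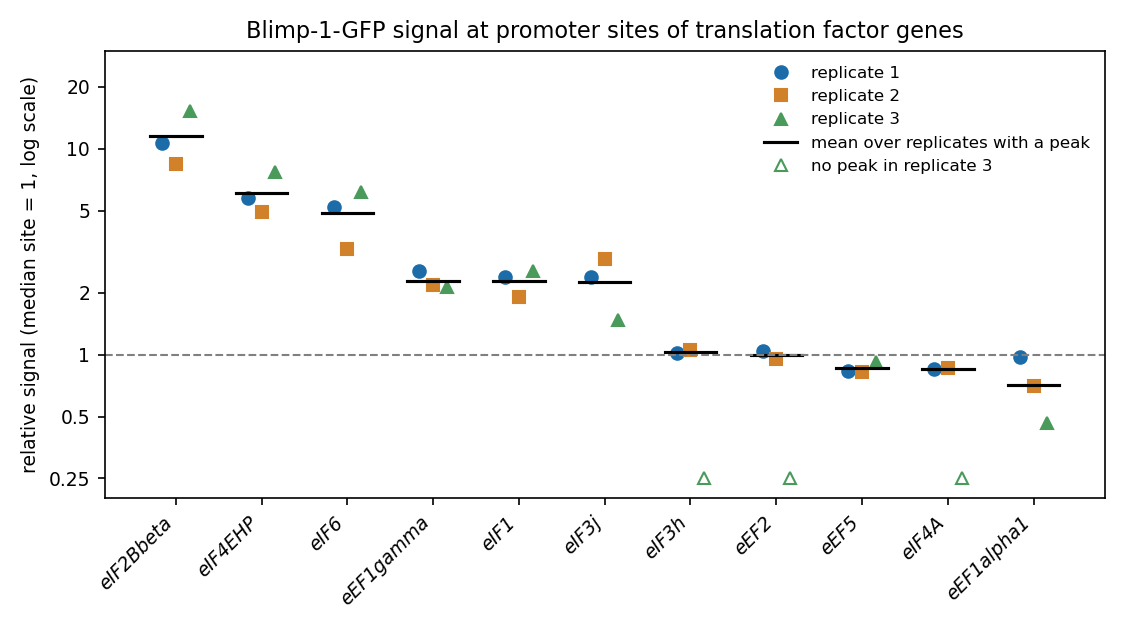
Relative signal (log scale, median site of each replicate = 1) at the promoter sites of the 11 bound translation factor genes, with 1 point for each of the 3 replicates and a line at the mean over replicates with a peak. Open triangles are placed at an arbitrary height and mark the 3 genes with no peak in the list of replicate 3; 6 genes lie above 1 in every replicate.

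The strongest site of all translation factor genes lay beside eIF2Bbeta, which encodes a subunit of eIF2B, the exchange factor that recharges eIF2 with GTP. Its relative signal was 10.7, 8.46 and 15.3 in replicates 1, 2 and 3, a mean of 11.5 ± 3.49 (SD, n = 3). The site ranked 27 among all sites and was in the top 61 peaks of every replicate. It lay in intergenic sequence on chromosome X (dm6, 2703676 to 2704109), with the summit 678 bp upstream of the eIF2Bbeta TSS but only 41 bp upstream of that of Ugalt, a nucleotide sugar transporter gene. Which of the 2 promoters the binding belongs to cannot be told apart. None of the 4 other eIF2B genes was bound, against 18.6% of all genes. Of the 5, 3 had no pooled relaxed peak near a TSS, while 45.6% of all genes had one. With 5 genes these counts are not distinguished from the shares of all genes.

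The site of eIF4EHP was the next strongest. This gene encodes a cap-binding protein that competes with eIF4E and is known in fly embryos for repressing particular mRNAs. The relative signal was 5.78, 4.91 and 7.71 in replicates 1, 2 and 3, a mean of 6.14 ± 1.43 (SD, n = 3), at rank 131. The summit on chromosome 3R (24108967 to 24109416) was intergenic, 209 bp upstream of the eIF4EHP TSS and 167 bp upstream of that of CG18428. A further 3 weaker sites lay in the long eIF4EHP gene, which also spans Syx1A, a syntaxin gene. Their means were 0.80 ± 0.21, 0.66 ± 0.40 and 0.54 ± 0.06 (SD, n = 3), and each was nearer to a TSS of Syx1A.

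The eIF6 site was of similar strength. eIF6 binds the large ribosomal subunit and keeps it from joining too early. The relative signal was 5.19, 3.24 and 6.18 in replicates 1, 2 and 3, a mean of 4.87 ± 1.49 (SD, n = 3), at rank 206. The summit, on chromosome 2R (23850238 to 23850586), lay 103 bp upstream of the eIF6 TSS and inside an intron of the neighbouring gene ytr. At eIF2Bbeta, eIF4EHP and eIF6 alike, replicate 3 gave the highest value and replicate 2 the lowest.

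Sites of intermediate strength lay at eEF1gamma, eIF1 and eIF3j, with means of 2.28 ± 0.22, 2.28 ± 0.33 and 2.26 ± 0.73 (SD, n = 3). eEF1gamma encodes a subunit of the complex that exchanges the nucleotide on eEF1alpha. Its site on chromosome 3R (29219988 to 29220267) had relative signals of 2.54, 2.18 and 2.13 in replicates 1, 2 and 3, a summit 38 bp upstream of the TSS and no TSS of another gene within 1000 bp. eIF1 guards the choice of the start codon. Its site on chromosome 3L (3222884 to 3223481), with 2.38, 1.91 and 2.55 in replicates 1, 2 and 3, was merged from 2 peaks. The summit lay 317 bp upstream of eIF1 and nearer, at 64 bp, to the divergent TSS of RpL28, a ribosomal protein gene. With an overlap of at least 50% of the site required, the eIF1 mean fell to 0.996, since the peak at its summit (3222884 to 3223140) covers less than that of the merged site. eIF3j encodes a loosely held eIF3 subunit. Its site lay in an intron on chromosome 2R (9969469 to 9969827), 587 bp downstream of a TSS, with 2.40, 2.91 and 1.47 in replicates 1, 2 and 3.

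These 3 means differed by less than the spread between replicates, and the order of the 3 sites changed from replicate to replicate. The means of eIF4EHP and eIF6 also differed by less than their SDs, but eIF4EHP was the higher in 3 of 3 replicates.

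Shown next, because they are the strongest member sites apart from eIF6, whose sequence is not shown here, is the genome around the summits of eIF2Bbeta, eIF4EHP, eEF1gamma and eIF1, from the RefSeq release 6 assembly (dm6), plus strand, with bases of annotated UTRs left out. Capitals mark TATCGATA, the DNA replication-related element (DRE), a core promoter sequence of housekeeping genes. The stretches are chrX:2703853-2703968 for eIF2Bbeta, chr3R:24109094-24109244 for eIF4EHP, chr3R:29220059-29220171 for eEF1gamma and chr3L:3222961-3223099 for eIF1, and the summit is base 41, 76, 76 and 64 of each.
eIF2Bbeta: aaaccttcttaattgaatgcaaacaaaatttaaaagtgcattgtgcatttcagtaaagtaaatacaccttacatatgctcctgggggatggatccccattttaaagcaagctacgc
eIF4EHP: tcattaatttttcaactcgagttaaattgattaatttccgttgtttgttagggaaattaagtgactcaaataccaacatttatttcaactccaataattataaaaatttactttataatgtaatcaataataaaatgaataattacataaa
eEF1gamma: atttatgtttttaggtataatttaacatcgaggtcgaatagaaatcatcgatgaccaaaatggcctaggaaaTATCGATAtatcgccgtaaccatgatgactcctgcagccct
eIF1: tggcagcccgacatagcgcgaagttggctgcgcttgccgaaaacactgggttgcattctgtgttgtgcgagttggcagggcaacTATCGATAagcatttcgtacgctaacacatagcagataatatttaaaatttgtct

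Matches to the known Blimp-1 recognition motif were searched for around the member summits. With 11 sites the counts are too small to be set apart from the shares of all promoter sites, and none was tested. GTGAAAG, the core of that motif, searched on both strands within 100 bp of the summit, was at 0 of 11 member sites and at 7.77% of all promoter sites. The 11-base PRDI-BF1 consensus was at 0 of 11 and 3.52%, and with at most 1 mismatch at 1 of 11 and 21.5%. That 1 site was eIF3j. The short core GAAAG, which the longer motifs contain, was at 6 of 11 (54.5%) and at 53.3% of all promoter sites, within 16 bp of the summit at eEF2 and 19 bp at eIF3j. With at most 2 mismatches the consensus was at 5 of 11 member sites and 64.8% of promoter sites. For eIF2Bbeta, the strongest site, and eIF4A the closest such sequences are given, each read on the strand of the match, at chrX:2703848-2703858 (plus strand, 40 bp from the eIF2Bbeta summit) and chr2L:5983473-5983483 (minus strand, 10 bp from the eIF4A summit), with capitals over the whole match.
eIF2Bbeta: ATGCGAAACCT
eIF4A: CAGCGAAAAGT

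Other promoter sequences, the DRE among them, lay within 100 bp of some of the summits. The DRE, a palindrome, was within 100 bp of the summit at 3 of 11 member sites (eEF1gamma, eIF1 and eIF6) and at 2.87% of all promoter sites. The eEF1gamma DRE was centred 1 bp from the summit, that of eIF1 25 bp and that of eIF6 95 bp from it. GGTCACAC, the core of Motif 1, was at 1 of 11, at eEF1alpha1 and centred on the summit, and at 2.30% of promoter sites. CACGTG, the E-box, was at 1 of 11, eIF3j, and 2.26% of promoter sites. GAGAG was at 1 of 11, eIF4A, and 33.7% of promoter sites. With 11 sites these counts are small, and none was tested.

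The annotated starts were also searched for the initiator typical of ribosomal protein genes. CTTT on the sense strand, beginning within 3 bases of a TSS, was found at 1 of 52 translation factor genes (eIF3m, which was unbound), at 33.3% of 93 genes with ribosomal protein symbols and at 4.73% of all genes. The translation factor count, 1.92%, is too small to be set apart from that of all genes. The count depends on the annotated start being exact.

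Elongation factors had 4 of their 8 genes bound, against 18.6% of all genes. The difference was not tested. These were eEF1gamma, eEF1alpha1, which encodes the carrier of aminoacyl-tRNA, eEF2, the translocase, and eEF5, the fly gene of the hypusine-bearing factor also known as eIF5A. All 4 have more than 1 TSS, as does the unbound eEF1alpha2, while eEF1beta, eEF1delta and eEFSec have 1. Of all genes with more than 1 TSS 33.5% were bound, and of those with 1 TSS 13.3%. The summits of all 4 bound genes lay within 50 bp of a TSS, as was the case for 11.4% of all bound genes. That share includes genes with 1 TSS, which have fewer starts for a summit to be near, so these are not counted alike. Apart from eEF1gamma the sites were near or below the median site. The eEF5 site had relative signals of 0.84, 0.83 and 0.92 in replicates 1, 2 and 3, a mean of 0.86 ± 0.05 (SD, n = 3), on chromosome 2R (24057586 to 24058055), 23 bp downstream of the TSS in the 5′ UTR. The eEF1alpha1 site had 0.97, 0.71 and 0.47, a mean of 0.72 ± 0.25 (SD, n = 3), on chromosome 2R (11891838 to 11892307), 49 bp upstream of an internal TSS in an intron. The eEF2 site had 1.04 and 0.95 in replicates 1 and 2, a mean of 0.99 ± 0.06 (SD, n = 2), and no peak in replicate 3. It lay on chromosome 2L (21681838 to 21682307), 43 bp downstream of a TSS. Its values in replicates 1 and 2 fell on either side of the median site.

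The 4 unbound elongation genes all had a weaker entry in the pooled relaxed list of 30000 peaks. By its label that list holds background as well as peaks, so an entry in it is not a call of binding. The entry ranked 6787 at eEF1delta, a nucleotide exchange subunit, 6915 at eEFSec, the selenocysteine factor, 12325 at eEF1beta, a further exchange subunit, and 23781 at eEF1alpha2, the paralogue of eEF1alpha1. Replicate 3 had no peak at eEF1delta, eEF1beta or eEF1alpha2. At eEF1alpha2 only replicate 1 had one, with a relative signal of 0.21, near the lowest of that replicate, 0.163. All 8 elongation genes thus had an entry in the pooled list within 1000 bp, against 45.6% of all genes, and 31 of the 52 members did (59.6%).

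**Figure D2:**
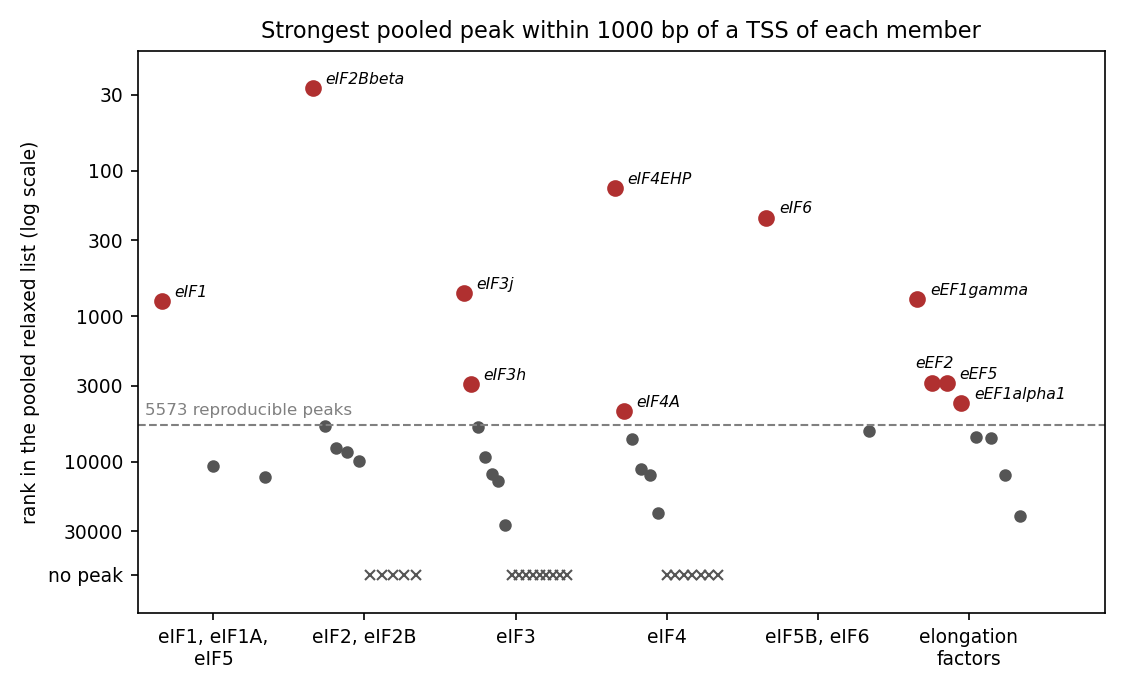
Rank (log scale, strongest at the top) of the strongest pooled relaxed peak with its summit within 1000 bp of a TSS, for each of the 52 translation factor genes by role. Red points are bound genes, grey points have a peak below the 5573 reproducible ones (dashed line), and crosses mark the 21 genes without a pooled peak. The list also holds background, and all 8 elongation genes have an entry in it.

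Of 16 genes of the large eIF3 complex, paralogues included, 2 were bound (12.5%), eIF3j and eIF3h, against 18.6% of all genes. A pooled relaxed peak lay near a TSS of 7 of the 16, against 45.6% of all genes, so neither count sets eIF3 apart. The eIF3h site on chromosome 2L (5052273 to 5052946) had relative signals of 1.02 and 1.05 in replicates 1 and 2, a mean of 1.03 ± 0.02 (SD, n = 2), and no peak in replicate 3. Its summit lay in an intron 272 bp downstream of a TSS and 335 bp upstream of senju. The paralogue pairs eIF3d1 and eIF3d2, eIF3f1 and eIF3f2, and eIF3g1 and eIF3g2 were all unbound.

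Of the 10 genes named for eIF2, 1 was bound, eIF2Bbeta, against 18.6% of all genes, and 5 had a pooled relaxed peak, against 45.6%. The subunit genes of eIF2 itself, eIF2alpha, eIF2beta and eIF2gamma, were unbound, and 1 of the 3, eIF2beta, had a relaxed peak. Counts this small and this near the shares of all genes say nothing particular about the eIF2 genes. eIF2A and eIF2D, alternative carriers of initiator tRNA, were unbound.

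The eIF4 group had 2 of 13 genes bound (15.4%), against 18.6% of all genes, and 6 of 13 with a pooled relaxed peak, against 45.6%. Besides eIF4EHP this was eIF4A, the RNA helicase that unwinds the mRNA leader, with relative signals of 0.85 and 0.86 in replicates 1 and 2, a mean of 0.85 ± 0.01 (SD, n = 2), and no peak in replicate 3. The eIF4A site on chromosome 2L (5983253 to 5983722) lay in an intron, 894 bp downstream of a TSS. The cap-binding proteins proper, eIF4E1 and its paralogues eIF4E3 to eIF4E7, had 0 of 6 bound, and 1 of the 6, eIF4E1, had a pooled relaxed peak. With 6 genes these counts are not distinguished from the shares of all genes. The scaffold genes eIF4G1 and eIF4G2, and eIF4B, eIF4H1 and eIF4H2, were unbound.

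Of the start codon factors eIF1 was bound, and eIF1A and eIF5 were not. eIF5B, which joins the subunits, was unbound at its promoter but held 2 intronic sites. One lay on chromosome 3L (3432710 to 3432992), 27712 bp downstream of the nearest eIF5B TSS and 7956 bp from that of sty, with relative signals of 1.33, 1.20 and 1.88 in replicates 1, 2 and 3, a mean of 1.47 ± 0.36 (SD, n = 3). The other (3450337 to 3450806), 10031 bp downstream, had a mean of 0.58 ± 0.07 (SD, n = 3).

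Several promoters were shared with a neighbour. At 6 of the 11 member sites the summit also lay within 1000 bp of a TSS of another gene, as at 29.1% of all promoter sites. These shares are not counted alike. The 29.1% counts each site once, while member sites were reached through genes, which favours sites near TSSs of several genes. At 3 of the 6 member sites, eIF1, eIF2Bbeta and eIF4EHP, the other TSS was the nearer one. Of the 26 members with a divergent TSS within 1000 bp, 7 were bound (26.9%), which equals the 26.9% of all such genes, and of the 26 without one 4 were bound, against 14.0% of all such genes. The number of start sites gave a like picture. Of 32 members with 1 TSS, 4 were bound against 13.3% of all genes with 1 TSS, and of 20 with more, 7 were bound against 33.5%. Within each of these classes the share of members was near that of all genes.

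**Figure D3:**
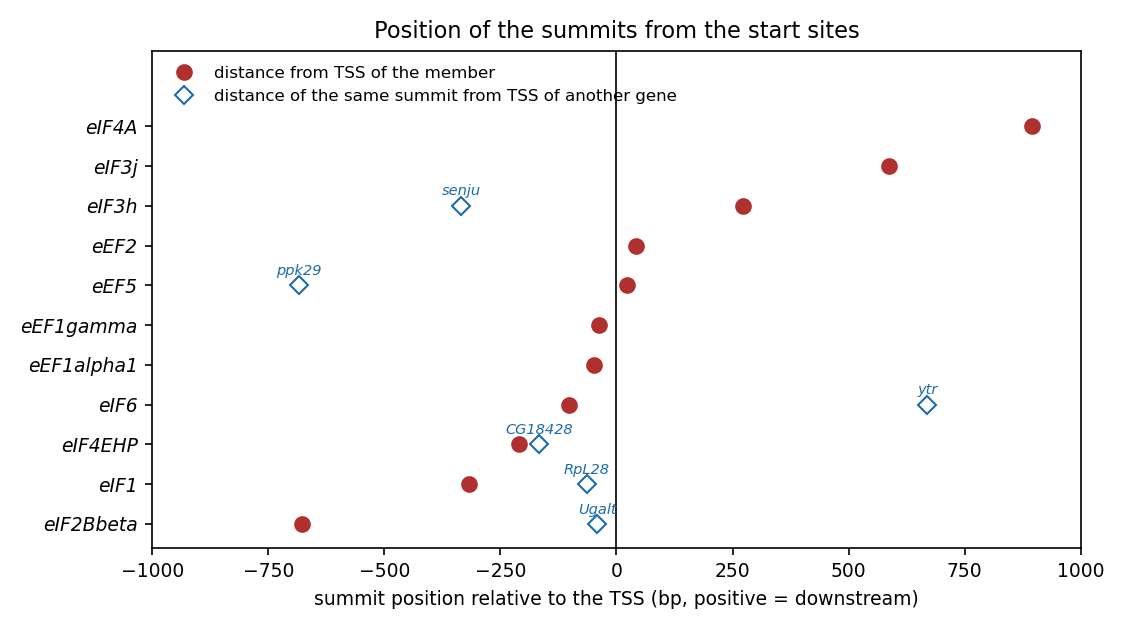
Position of the summit in bp from the nearest TSS of the bound gene (red points, negative is upstream) and from the TSS of the nearest other gene within 1000 bp (open diamonds, named). The summits of 4 elongation factor genes lie within 50 bp of their TSS, and those of eIF1, eIF2Bbeta and eIF4EHP lie nearer to a TSS of another gene.

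Stricter and wider rules moved the members with the background. Within 500 bp, 8 members were bound against 15.2% of all genes, and within 2000 bp 13 against 23.6%. Just outside 1000 bp were eIF3d1, with a site 1292 bp upstream and a mean relative signal of 1.37 ± 0.20 (SD, n = 3), and eIF2Bgamma, with one 1299 bp upstream and 0.93 ± 0.19 (SD, n = 2). Just inside was eIF4A at 894 bp. Among the 2500 strongest sites 6 members were bound against 10.5%, and with each site given to its nearest TSS alone 8 against 14.3%.

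The weaker members differed in support from replicate 3, which eEF5, at a mean of 0.86, had. Of the 52 members 7 (13.5%) had a site that was also among the strongest peaks of all 3 replicates, against 9.98% of all genes. Counted over sites, these were 7 of the 11 member sites and 53.9% of all promoter sites. The other 4, eEF1alpha1, eEF2, eIF3h and eIF4A, were among the strongest peaks of replicates 1 and 2 alone. eEF2, eIF3h and eIF4A had no peak at all in the 30000 of replicate 3, whose weakest peak had a relative signal of 0.156. Replicate 3 lacked a peak at 589 of the 4990 sites (11.8%), against 2 in replicate 1 and 35 in replicate 2.

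Below the IDR threshold, 20 of the 41 unbound members had a pooled relaxed peak within 1000 bp of a TSS. With bound genes included, 59.6% of the 52 members and 45.6% of all genes had one. The share among unbound genes alone is not given here, so the 20 cannot be set against it. The strongest were at eIF2Bdelta (rank 5659, mean relative signal 0.46 ± 0.13), eIF3a (5772, 0.60 ± 0.02), eIF5B (6110, 0.43 ± 0.11), eEF1delta (6787, 0.38 ± 0.22; SD, n = 2 each) and eEFSec (6915, 0.38 ± 0.21; SD, n = 3). The deposited signal was 202 at eIF2Bdelta, just under the lowest reproducible signal of 205, and 247 at eIF4A, the lowest of the bound members. Of these 20 genes, 19 had a peak in replicate 1, 16 in replicate 2 and 3 in replicate 3, and no like shares of other genes are given. In replicate 1 alone, eIF2A, eIF3b and eIF3m had a summit of the strongest peaks within 1000 bp.

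Other genes of the translation machinery were set beside these. Of 20 release, recycling and regulatory genes, 8 were bound (40.0%), against 18.6% of all genes. Over the replicates it was 31.7% ± 5.77 against 16.4% ± 2.52 (SD, n = 3). Sites supported by all 3 replicates left 3 of the 20 bound, against 9.98% of all genes. The difference was not tested. The strongest was Lk6, a kinase gene of the eIF4E pathway, at 7.75 ± 1.17 (SD, n = 3), then pix, which encodes a ribosome recycling ATPase, at 2.16 ± 0.33 (SD, n = 3), and NAT1, an eIF4G relative, at 1.53 ± 0.39 (SD, n = 2). The Lk6 summit lay 977 bp upstream of its TSS, just inside the window of 1000 bp. Of 33 aminoacyl-tRNA synthetase genes, 7 were bound (21.2%), near the 18.6% of all genes. They were led by AlaRS-m at 5.44 ± 1.40, GluProRS at 2.31 ± 1.38 and LeuRS-m at 1.51 ± 0.05 (SD, n = 3), of which the AlaRS-m and LeuRS-m sites lay nearer to Fitm and Dhc64C. The 93 genes with symbols of cytoplasmic ribosomal proteins had 63 bound (67.7%), against 18.6% of all genes. They were led by RpL36A at 11.0 ± 2.31, RpS28a at 6.78 ± 1.78 and RpS28b at 2.99 ± 0.24 (SD, n = 3), all with a TSS of another gene nearer to the summit. Of the 73 mitochondrial ribosomal protein genes 16 were bound (21.9%), near the 18.6% of all genes. They were led by mRpS10 at 7.03 ± 2.26 and mRpL41 at 6.36 ± 1.69 (SD, n = 3) and mRpS23 at 5.58 ± 0.31 (SD, n = 2), of which the mRpS10 and mRpS23 sites lay nearer to Art3 and CenG1A. Of 9 mitochondrial translation factor genes 0 were bound, in the IDR list and in each replicate. With 9 genes this is not distinguished from the 18.6% of all genes.

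Between these lists the cytoplasmic ribosomal protein genes had the highest share in each replicate, at 68.8%, 66.7% and 36.6%, and the translation factors had 26.9%, 21.2% and 13.5%. In each replicate the 2 values differed by more than the SD of either list over the replicates, and the difference was not tested.

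**Figure D4:**
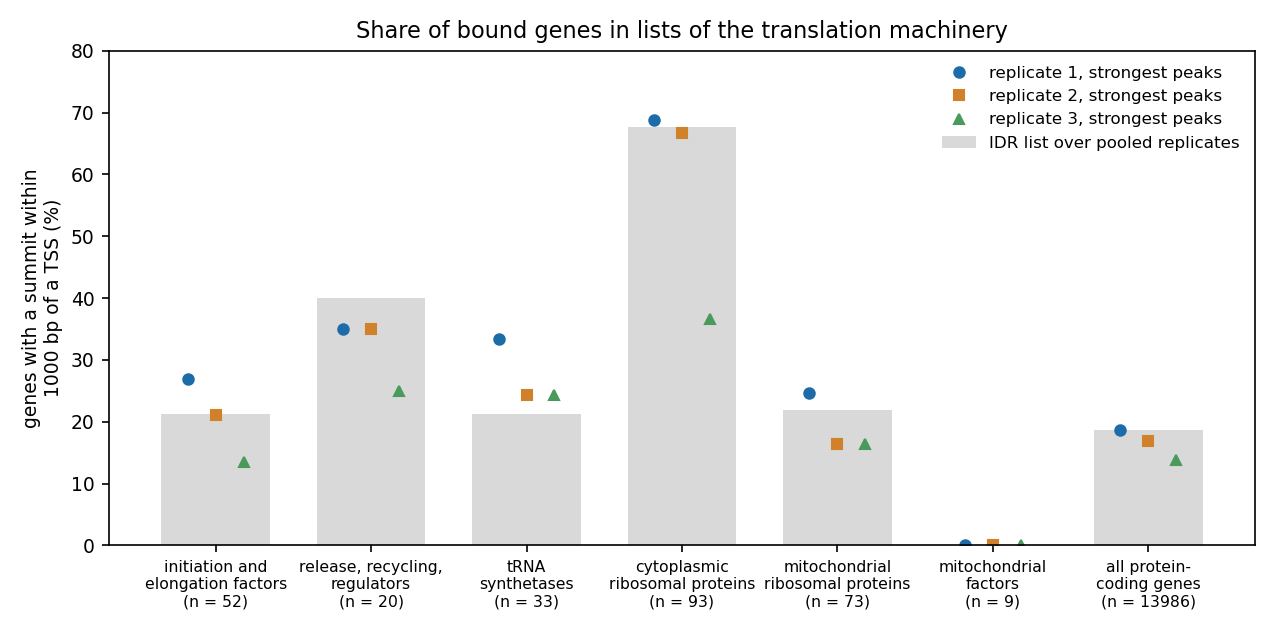
Percent of genes with a summit within 1000 bp of a TSS in 6 lists of the translation machinery and in all protein-coding genes, from the IDR list (bars) and from the strongest peaks of each of the 3 replicates (points). Initiation and elongation factors (21.2%) lie near all genes (18.6%), and cytoplasmic ribosomal proteins (67.7%) above both.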

How the data were processed

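ChIP-seq peak lists of 3 replicates were used as deposited, in the narrowPeak layout on dm6. The authors deposited, per the labels and the text with each library, relaxed lists of peaks and background, 1 per replicate and 1 for all replicates pooled, and an IDR list. The signal value the authors deposited for each peak is in column 7, and the summit offset in column 10. Aligner, peak caller and signal scaling were not given in the sources used here. The values deposited in column 9, read as −log10 of a q-value, were not used in any result. The dm3 lists were not used.

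Overlapping IDR peaks were merged, keeping the strongest summit, and a peak was taken to lie at a site from an overlap of 1 bp. TSSs were those of all transcripts of protein-coding genes in Ensembl release 115 (BDGP6.54), and sequence was read from the RefSeq release 6 assembly. Python 3.11.15, numpy 2.4.6 and pandas 2.3.3 were used, and the assignment of summits to TSSs was tested on simulated data. All bound members are named with their values, the 5 unbound members with the strongest relaxed peak, and up to 3 bound genes of each other list. Of the regulator symbols, 1 was matched through its RefSeq synonym. Ranks of 2 further elongation factor peaks were added after their values were seen. Members, lists and rules were chosen with earlier results of these data known.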

Additional observations from a re-analysis of the deposited data

How the results depend on the processing

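The number of bound members (11) stayed within 1.5 times under 5 of the 7 alternatives that kept all replicates, and was 6 (11.5% of members, 10.5% of all genes) among the 2500 strongest sites and 7 (13.5% and 9.98%) with sites supported by all 3 replicates. When 1 replicate was dropped and support from both others required, 7 to 11 members were bound (13.5% to 21.2%), against 10.5% to 14.4% of all genes; without replicate 1 or without replicate 2 it was 7, losing eEF1alpha1, eEF2, eIF3h and eIF4A. The median relative signal of member sites, 2.26 as reported, was 1.48 relative to the mean site and 1.09 with an overlap of at least 50% of the site, and 1.93 to 2.16 with a replicate left out. The overlap of 50% was tried for single sites after seeing the data and moved 3 of 11 by more than their spread, eIF1 by most. That rule also gave each replicate a new median site, which rescaled all member sites but eIF1 alike. Only at eIF1 was a different peak taken. The moves of eIF3h (1.03 to 1.09) and eIF4A (0.85 to 0.90) were this rescaling alone. Signals relative to the mean site put 10 of the 11 sites beyond their spread, at 0.559 to 7.62, but this rescales every site of a replicate alike. GAAAG was at 36.4% of member sites within 50 bp of the summit and 81.8% within 200 bp. The share of all promoter sites is not given for these windows. Neither value can thus be set against the 53.3% found within 100 bp. With the overlap of 50% eIF1 crossed from above to below the median site (2.28 to 0.996) and eEF2 from below to above (0.99 to 1.05). The peaks at eEF2 were the same under both rules, and its crossing came from the new median site alone. No paired analysis was possible because there is 1 group. Unknown depth limits what a missing peak shows, and the relaxed lists end at 30000 peaks.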
